A study of Homo sapiens with 4 samples.

Results

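The conversion of fructose 6-phosphate to fructose 1,6-bisphosphate, catalysed by phosphofructokinase 1 (PFK-1), is the committed step of glycolysis. In human cells PFK-1 is built from liver, muscle and platelet type subunits, encoded by PFKL, PFKM and PFKP. The enzyme is switched on by fructose 2,6-bisphosphate, a signalling metabolite that the bifunctional PFKFB enzymes make with a kinase domain and break down with a phosphatase domain. PFKFB3 acts almost entirely as a kinase, whereas PFKFB4 and PFKFB2 have more balanced activities, and PFKFB2, first known from heart, is regulated by phosphorylation. TIGAR, a phosphatase, also lowers fructose 2,6-bisphosphate, and FBP1 runs the PFK-1 step backwards in gluconeogenesis.

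The expression of these 8 genes (PFKL, PFKM, PFKP, PFKFB2, PFKFB3, PFKFB4, TIGAR and FBP1) was examined among the 28729 genes of an RNA-seq table of TU-177 cells. The 8 were taken by name, as the phosphofructokinase isoforms, their bifunctional regulators and 2 opposing phosphatases. No cut on a measured value was used, but earlier results of these data were known when the genes were chosen. TU-177 is an established line described as laryngeal squamous cell carcinoma (LSCC). All 4 cultures received lentivirus with a short hairpin RNA (shRNA), and puromycin, which kills cells without the vector, was added 48 h after transduction. In 2 cultures the hairpin was a negative control (NC) and in 2 it targeted SKA3 (SKA3-KD), a subunit of the complex that holds chromosomes to spindle microtubules. The sources used here do not say which hairpin sequence was used, or whether the 2 replicates of a group came from separate transductions. The p-values therefore measure the spread between these libraries, which may be technical. The comparison addresses how the genes of the phosphofructokinase step were expressed when SKA3 was reduced.

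Values are FPKM, fragments per kilobase of exon, corrected for library size, so levels of different genes are compared per length. The libraries held between 9015056 and 11966130 reads. SKA3 itself was at 9.40 and 9.64 FPKM in NC and at 3.77 and 4.12 FPKM in SKA3-KD, and fell by 1.09 on the log2(FPKM + 1) scale (SE 0.07, adjusted p = 0.00806, limma with Benjamini-Hochberg adjustment). The squamous label was met in part only. SFN (133 to 155 FPKM), KRT17 (29.4 to 49.1 FPKM) and EPCAM were above 1 FPKM, whereas the basal keratins KRT5, KRT14 and KRT6A, the squamous master regulator TP63, the desmosomal gene PKP1 and E-cadherin (CDH1) were below 1 FPKM in every library. Of 6 fibroblast genes, 3 had a mean of at least 1 FPKM, and their sum over all 6 was 15.4 to 15.8 FPKM in NC and 8.86 to 9.56 FPKM in SKA3-KD, with decorin (DCN) alone going from 8.40 and 8.36 to 2.48 and 2.35 FPKM. PDGFRB of the same list lay the other way, at 2.88 and 2.46 FPKM in NC and at 3.19 and 4.13 FPKM in SKA3-KD, and COL1A1 was at 3.22 and 3.99 FPKM in NC and at 2.71 and 2.66 FPKM in SKA3-KD. COL3A1, COL1A2 and LUM of this list were below 1 FPKM in every library. Of the genes listed for other cell types, 2 of 4 endothelial, 3 of 4 immune, 4 of 4 muscle and 1 of 3 liver genes were found in the data. None of those found reached a mean of 1 FPKM. The part of this fibroblast list in the results that follow was not tested. In bulk RNA, fewer cells of a type and less RNA per cell cannot be told apart.

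Of the 8 genes, 7 had a mean of at least 1 FPKM and were tested, among 12645 genes in all. PFKFB2 and PFKFB4 fell in SKA3-KD, and none of the 7 rose past the threshold of an adjusted p of 0.05. Across all 12645 genes tested, 6.11% were lower and 6.16% higher past that threshold. Without NC 1 no call named here was kept, with log2 fold changes of -0.80 for PFKFB2 and -0.70 for PFKFB4. Leaving out any of the libraries left 1 in its group and gave fewer calls, so this loss is not tied to NC 1 alone. PFKFB3 and PFKP were higher in both SKA3-KD libraries, PFKL, PFKM and TIGAR were lower in both, and none of these 5 passed the threshold. The groups of 2 libraries did not overlap for any of the 7, which was also the case for 61.6% of all genes tested, so the lack of overlap says little by itself. At an unadjusted p under 0.05 all 7 differed, 5 lower and 2 higher, against 31.3% of all genes tested. The median log2 fold change of the 7 was -0.24, and that of all genes tested was 0.01.

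**Figure D1:**
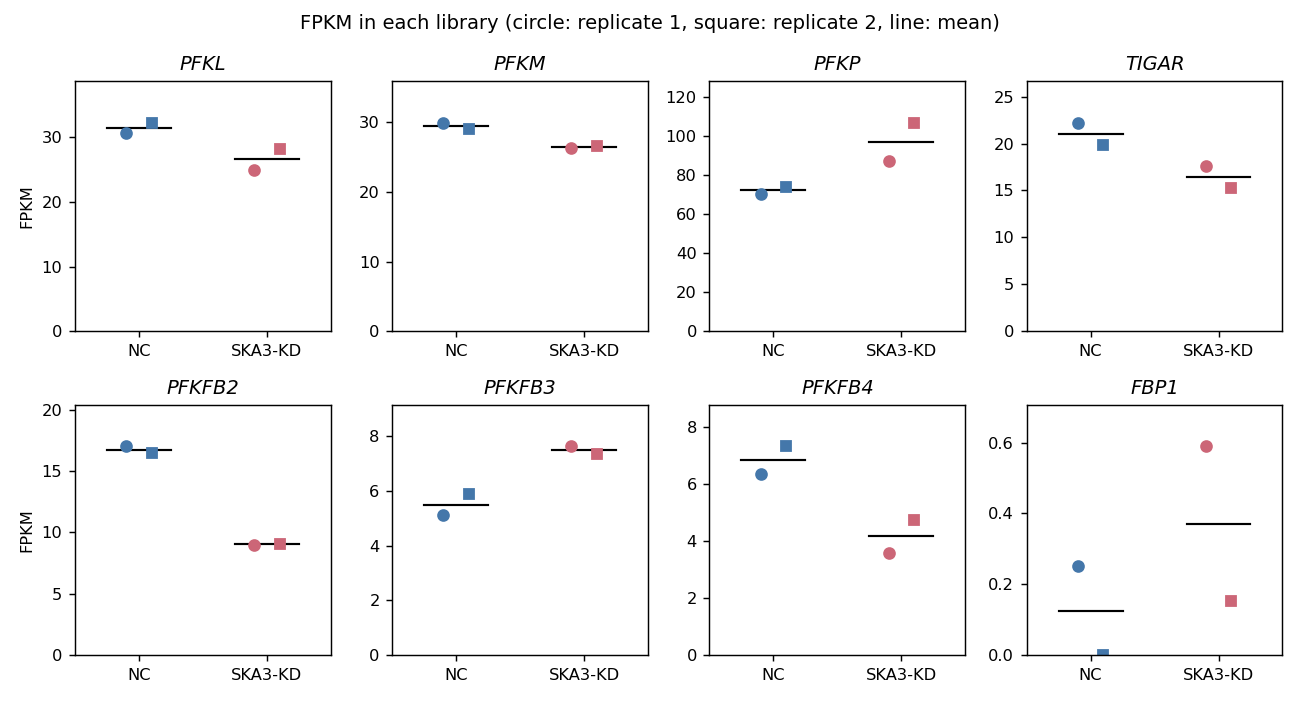
FPKM of each of the 8 genes (y axes from 0, a separate scale in each panel) in the NC libraries (blue) and the SKA3-KD libraries (red). Circles are replicate 1, squares replicate 2 and black lines group means (n = 2). PFKFB2 goes from 16.5 and 17.0 to 8.98 and 9.06 FPKM with almost no spread within a group, PFKFB3 and PFKP lie higher in SKA3-KD, and FBP1 is below 1 FPKM throughout.

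**Figure D2:**
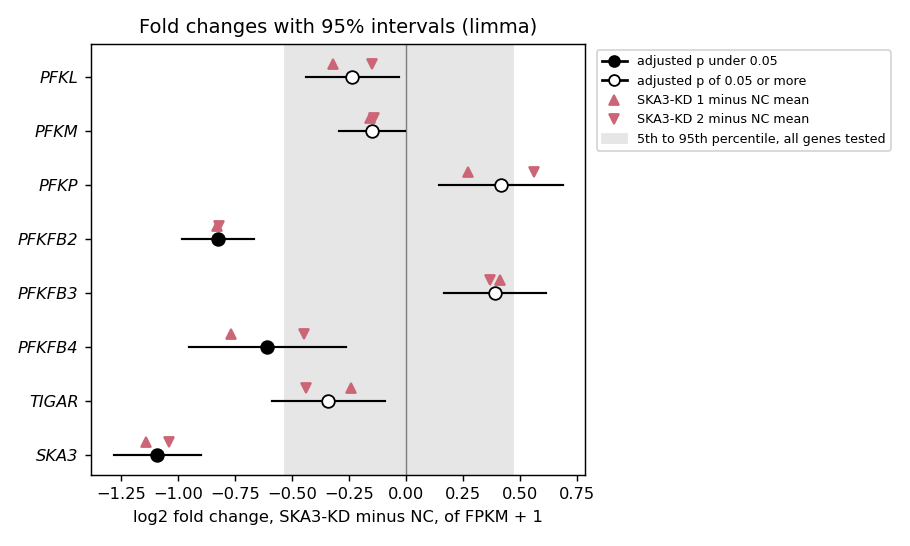
Log2 fold changes of FPKM + 1 (SKA3-KD minus NC, x axis) of the 7 genes tested and of SKA3, with limma's 95% intervals as black lines and filled circles for an adjusted p under 0.05. Red triangles give each SKA3-KD library against the NC mean, and the grey band spans the 5th to 95th percentile of all 12645 genes tested (-0.53 to 0.47). Of the 7 genes, PFKFB2 and PFKFB4 lie outside the band.

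PFK-1 subunits were the most abundant members. Averaged over the 4 libraries, PFKP was at 84.7 FPKM, above 96.3% of the genes tested. PFKL and PFKM followed at 29.03 and 28.0 FPKM, and the libraries of these 2 genes overlapped, so that neither can be placed above the other.

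PFKP, the platelet type subunit that many tumours express (ENSG00000067057, GRCh38 chr10:3066333-3137712, plus strand), was at 70.4 (NC 1) and 74.1 FPKM (NC 2) in the controls and at 87.5 (SKA3-KD 1) and 106.9 FPKM (SKA3-KD 2) after knockdown. Both SKA3-KD libraries lay above both NC libraries, and SKA3-KD 1 was nearer to NC 2 than to SKA3-KD 2. The log2 fold change was 0.42 (SE 0.11, 95% interval 0.15 to 0.69), with an adjusted p of 0.0669 by limma. PFKP passed the threshold under 3 of 9 alternative settings that used all 4 libraries, with log2 fold changes between 0.41 and 0.43. Taken alone, SKA3-KD 1 gave 0.27 and SKA3-KD 2 gave 0.56 against the NC mean, so that the size of the difference rests on which library is used.

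PFKL, the liver type subunit (ENSG00000141959, GRCh38 chr21:44300051-44327376, plus strand), was at 30.6 and 32.3 FPKM in NC 1 and NC 2, and at 24.96 and 28.2 FPKM in SKA3-KD 1 and SKA3-KD 2. The 2 SKA3-KD libraries were the lowest of the 4. The log2 fold change was -0.24 (SE 0.08, 95% interval -0.44 to -0.03, adjusted p = 0.123, limma). Leaving out SKA3-KD 1 gave -0.15, and leaving out SKA3-KD 2 gave -0.32. PFKM, the muscle type subunit (ENSG00000152556, GRCh38 chr12:48105139-48146404, plus strand), was at 29.9 and 29.1 FPKM in NC and at 26.3 and 26.7 FPKM in SKA3-KD. This was the smallest difference of the 7 genes, with a log2 fold change of -0.15 (SE 0.06, adjusted p = 0.152, limma). PFKM shares 8.6% of its annotated exon bases with SENP1 on the opposite strand, and whether the reads were assigned by strand is not given in the sources used here.

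Because PFKP and the other subunits lay on opposite sides of 0, the make-up of the PFK-1 transcripts was compared. The 3 subunits summed to 131.0 and 135.5 FPKM in NC and to 138.8 and 161.8 FPKM in SKA3-KD. PFKP made up 53.8% and 54.7% of this sum in NC, and 63.0% and 66.1% in SKA3-KD, a difference of 10.3 percentage points. The share of PFKL went from 23.4% and 23.8% to 18.0% and 17.5%, and that of PFKM from 22.9% and 21.5% to 19.0% and 16.5%. For PFKP and PFKL the gap between the groups exceeded the spread within either group, and for PFKM it was about as wide as the spread in SKA3-KD. The ratio of PFKP to PFKL was 2.30 in both NC libraries and 3.51 and 3.78 in the SKA3-KD libraries. Exact permutation of the 4 libraries gives no p under 0.33 in a design of this size, so these shares and ratios are given as values, with no test.

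Among the bifunctional enzymes PFKFB2 was the most abundant, at a mean of 12.9 FPKM over the 4 libraries, followed by PFKFB3 at 6.50 and PFKFB4 at 5.50 FPKM. PFKFB1, the liver and muscle form, was not detected beyond 4 reads in any library. The order of PFKFB3 and PFKFB4 depended on the group. In both NC libraries PFKFB4 was the higher of the pair, and in both SKA3-KD libraries PFKFB3 was.

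PFKFB2 (ENSG00000123836, GRCh38 chr1:207034366-207081024, plus strand), a target of AMP-activated kinase in heart, was at 17.0 and 16.5 FPKM in NC 1 and NC 2, and at 8.98 and 9.06 FPKM in SKA3-KD 1 and SKA3-KD 2. These values came from 1999 and 1459 reads in NC and from 897 and 1049 reads in SKA3-KD. The libraries of a group were nearly equal, and the groups were far apart. The group means of 16.8 ± 0.376 and 9.02 ± 0.0586 FPKM (SD, n = 2) differed by -46.1%. On the log2(FPKM + 1) scale PFKFB2 fell by 0.83 (SE 0.06, adjusted p = 0.00837, limma), and it passed the threshold under all 9 alternative settings with 4 libraries. With 1 library left out it passed in 2 of 4 cases, with adjusted p-values between 0.0486 and 0.0689, and those above 0.05 were without NC 1 (0.0689) and without SKA3-KD 1 (0.0501). PFKFB2 shares 3.1% of its exon bases with YOD1 on the opposite strand, which was at 15.4 and 13.4 FPKM in NC and at 12.1 and 12.7 FPKM in SKA3-KD.

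PFKFB4 (ENSG00000114268, GRCh38 chr3:48517684-48562015, minus strand), which is induced by hypoxia in many cell types, was at 6.36 and 7.32 FPKM in NC 1 and NC 2, and at 3.59 and 4.73 FPKM in SKA3-KD 1 and SKA3-KD 2. Both SKA3-KD libraries were lower than both NC libraries, and the spread within each group was wider than that of PFKFB2. PFKFB4 shares 4.7% of its exon bases with UCN2 on the same strand. UCN2 was at 1.185 and 1.348 FPKM in NC and at 0.7298 and 1.718 FPKM in SKA3-KD. PFKFB4 fell by 0.61 on the log2(FPKM + 1) scale (SE 0.13, adjusted p = 0.0494, limma), or from 6.84 ± 0.681 to 4.16 ± 0.802 FPKM (SD, n = 2). This call lies at the edge of the threshold. It held under 5 of 9 alternative settings with all libraries (adjusted p from 0.000232 to 0.149) and in none of the 4 cases with 1 library left out, where the log2 fold change ranged from -0.77 without SKA3-KD 2 to -0.45 without SKA3-KD 1.

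PFKFB3 (ENSG00000170525, GRCh38 chr10:6144934-6254644, plus strand), the inducible form with the highest ratio of kinase to phosphatase activity, was at 5.12 and 5.89 FPKM in NC 1 and NC 2, and at 7.63 and 7.37 FPKM in SKA3-KD 1 and SKA3-KD 2. These values came from 339, 294, 430 and 481 reads. The 2 SKA3-KD libraries were the highest of the 4, opposite in direction to PFKFB2 and PFKFB4. The group means were 5.51 ± 0.547 and 7.50 ± 0.187 FPKM (SD, n = 2), and the log2 fold change was 0.39 (SE 0.09, 95% interval 0.17 to 0.61). The adjusted p of 0.0508 (limma) missed the threshold narrowly. PFKFB3 passed it under 4 of 9 alternative settings with 4 libraries (adjusted p from 0.00357 to 0.134), always in the higher direction, and under none with a library left out.

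**Figure D3:**
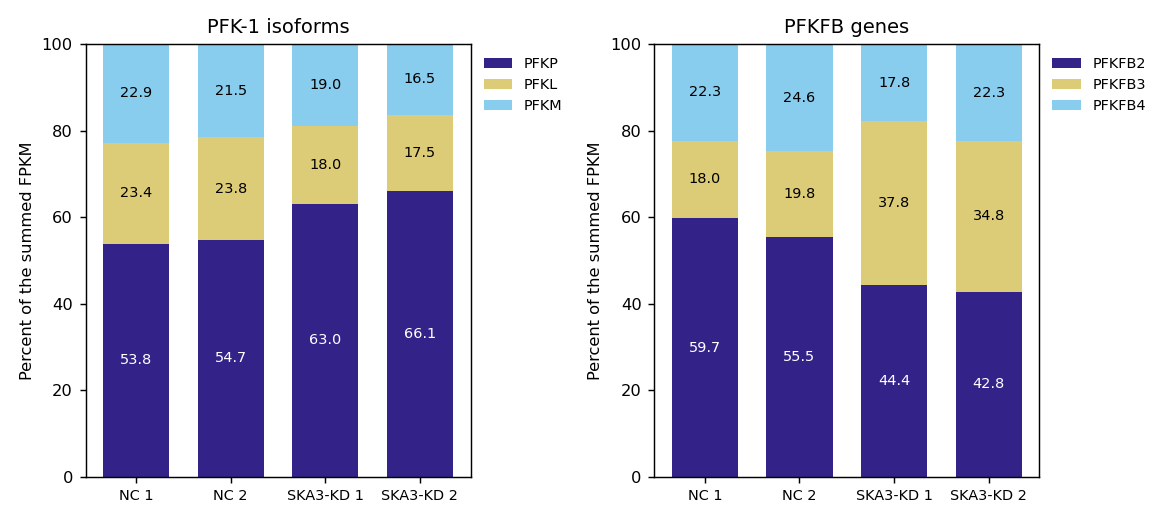
Percent of the summed FPKM of the 3 PFK-1 subunits (left) and of the 3 detected PFKFB genes (right) in each library (y axis 0 to 100). Numbers in the bars are the percentages. PFKP takes a larger share of PFK-1 in both SKA3-KD libraries (63.0 and 66.1) than in both NC libraries (53.8 and 54.7), and PFKFB3 a larger share of the PFKFB genes (37.8 and 34.8 against 18.0 and 19.8).

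The sum of the 3 PFKFB genes was 28.5 and 29.7 FPKM in NC and 20.2 and 21.2 FPKM in SKA3-KD. PFKFB2 held 59.7% and 55.5% of it in NC and 44.4% and 42.8% in SKA3-KD. PFKFB3 went from 18.0% and 19.8% to 37.8% and 34.8%, a difference of 17.4 percentage points. The share of PFKFB4 was 22.3% and 24.6% in NC and 17.8% and 22.3% in SKA3-KD, so that NC 1 and SKA3-KD 2 were level. The ratio of PFKFB3 to PFKFB2 was 0.301 and 0.357 in NC and 0.850 and 0.813 in SKA3-KD, and that of PFKFB3 to PFKFB4 was 0.805 in both NC libraries and 2.12 and 1.56 in SKA3-KD. In NC, transcripts of the most kinase-biased isoform were thus the least abundant of the 3, and in SKA3-KD they were second to PFKFB2. These are levels of RNA, and neither enzyme activity nor fructose 2,6-bisphosphate was measured in these libraries.

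Of the opposing phosphatases, TIGAR (ENSG00000078237, GRCh38 chr12:4307763-4354593, plus strand) was at 22.2 and 19.9 FPKM in NC 1 and NC 2, and at 17.6 and 15.2 FPKM in SKA3-KD 1 and SKA3-KD 2. The SKA3-KD libraries were the lowest of the 4, with a gap to NC that was close to the spread within each group. The log2 fold change was -0.34 (SE 0.10, 95% interval -0.59 to -0.09), and the adjusted p of 0.0845 (limma) did not pass, although 3 of 9 alternative settings gave a pass. A same-strand gene that is not listed in the table, ENSG00000285901, covers 42.6% of the annotated TIGAR exon bases, so the reads counted for TIGAR are uncertain. FBP1 (ENSG00000165140, GRCh38 chr9:94603133-94640249, minus strand) was nearly silent, with 5 and 0 reads in NC 1 and NC 2, and 10 and 3 reads in SKA3-KD 1 and SKA3-KD 2. The count of 0 allows up to 3 reads, or 0.199 FPKM. At this depth no difference of FBP1 was detectable, and it was not tested. FBP2, the muscle fructose-bisphosphatase, was likewise between 2 and 5 reads in each library.

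The sequences before the annotated starts are printed for PFKFB3 and PFKFB4, which lay on opposite sides of 0. Those of PFKP start 3 and TIGAR, which hold a match, are also printed, and 1 PFKM window with a match is not. Each printed sequence is the 250 bases before a transcription start in RefSeq (GRCh38.p14), written 5′ to 3′ on the strand of the gene. Capitals mark ACGTG on either strand, a form of the core of the hypoxia response element, or CACGTG. The latter is the E-box bound by factors of the bHLH family, and itself contains ACGTG on both strands. GCGTG, the other form of the hypoxia core, was not marked.
PFKFB4, chr3:48556804-48557053, minus strand: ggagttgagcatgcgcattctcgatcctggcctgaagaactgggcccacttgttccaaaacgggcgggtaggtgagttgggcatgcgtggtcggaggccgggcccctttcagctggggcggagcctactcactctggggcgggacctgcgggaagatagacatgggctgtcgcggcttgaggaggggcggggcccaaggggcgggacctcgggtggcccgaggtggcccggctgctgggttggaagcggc
PFKFB3, start 1, chr10:6144671-6144920, plus strand: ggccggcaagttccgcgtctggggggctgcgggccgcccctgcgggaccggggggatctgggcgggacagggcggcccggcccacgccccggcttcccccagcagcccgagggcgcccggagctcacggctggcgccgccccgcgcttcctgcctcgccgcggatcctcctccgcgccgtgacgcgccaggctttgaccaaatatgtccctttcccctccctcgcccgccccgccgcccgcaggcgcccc
PFKFB3, start 2, chr10:6202682-6202931, plus strand: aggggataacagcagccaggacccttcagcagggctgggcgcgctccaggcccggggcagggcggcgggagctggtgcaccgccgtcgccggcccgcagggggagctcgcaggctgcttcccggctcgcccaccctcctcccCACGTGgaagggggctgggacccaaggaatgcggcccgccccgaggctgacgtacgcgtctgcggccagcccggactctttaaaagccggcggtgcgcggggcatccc
PFKP, start 3, chr10:3068939-3069188, plus strand: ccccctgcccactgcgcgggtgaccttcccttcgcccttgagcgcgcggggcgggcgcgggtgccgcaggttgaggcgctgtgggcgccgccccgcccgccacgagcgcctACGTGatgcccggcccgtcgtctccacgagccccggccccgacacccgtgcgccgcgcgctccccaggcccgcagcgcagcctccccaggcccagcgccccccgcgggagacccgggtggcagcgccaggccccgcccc
TIGAR, chr12:4320963-4321212, plus strand: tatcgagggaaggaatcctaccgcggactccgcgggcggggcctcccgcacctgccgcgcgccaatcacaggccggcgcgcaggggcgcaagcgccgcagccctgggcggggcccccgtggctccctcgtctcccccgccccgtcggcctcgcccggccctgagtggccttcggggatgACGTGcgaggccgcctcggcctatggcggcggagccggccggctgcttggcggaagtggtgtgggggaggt

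Of the 8 genes, 7 had such windows, 17 in all, and windows of a gene can overlap. PFKFB2 had no window, so its sequence was not read. ACGTG was found in 4 of the 17 windows, 1 each of PFKM, PFKP, PFKFB3 and TIGAR, and in 18.5% of all 35116 promoter windows of the same length. CACGTG was found in 1 of the 17, PFKFB3 start 2, and in 6.3% of all windows. The PFKFB4 window and that of PFKFB3 start 1 held neither ACGTG nor CACGTG. Both hold GCGTG when either strand is read, and GCGTG was not counted in any window. A match here is a description of the letters, and the libraries do not say from which start the transcripts of a gene came.

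Genes around the phosphofructokinase step were then described by list. Of 19 glycolytic enzymes outside this step, 14 were tested, 10 with a negative and 4 with a positive log2 fold change. Their median was -0.15. None of the 14 passed the threshold in limma, against 12.3% of all genes tested. At an unadjusted p under 0.05, 3 of them were lower and 0 higher, against 31.3% of all genes tested. The brain type aldolase ALDOC, which splits the product of PFK-1, was at 22.9 and 23.9 FPKM in NC and at 11.6 and 17.2 FPKM in SKA3-KD (log2 fold change -0.68, adjusted p = 0.0678, limma). Hexokinase 2 (HK2), which makes the glucose 6-phosphate upstream of the step, was at 30.2 and 28.9 FPKM in NC and at 16.6 and 25.8 FPKM in SKA3-KD (log2 fold change -0.49, adjusted p = 0.17, limma). In both genes SKA3-KD 1 was below SKA3-KD 2, as it also was in PFKFB4.

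The pentose phosphate pathway, into which TIGAR activity diverts glucose, had 7 of 9 genes tested, 2 with a negative and 5 with a positive log2 fold change and a median of 0.05. None passed in limma, with 1 lower and 2 higher at an unadjusted p under 0.05, against 31.3% of all genes tested. Its largest differences were in RPIA, the ribose 5-phosphate isomerase (12.3 and 11.6 FPKM in NC, 14.4 and 15.3 FPKM in SKA3-KD, adjusted p = 0.0551, limma) and RPE, the ribulose-phosphate epimerase (20.7 and 20.5 FPKM in NC, 24.4 and 23.2 FPKM in SKA3-KD, adjusted p = 0.0989, limma). Of 10 genes of gluconeogenesis and fructose entry, 7 were tested, with a median of -0.01. AKR1B1, the aldose reductase that opens the route from glucose to fructose, fell from 70.4 and 73.4 to 57.0 and 54.4 FPKM (log2 fold change -0.36, adjusted p = 0.0265, limma). SORD, which completes that route, was at 7.57 and 7.20 FPKM in NC and at 9.80 and 8.74 FPKM in SKA3-KD (adjusted p = 0.0817, limma).

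Among 15 genes of kinases known to phosphorylate PFKFB proteins, 14 were tested, 10 with a positive and 4 with a negative log2 fold change and a median of 0.18. Of the 14, 1 passed the threshold in limma, in the higher direction, and its values are not reported here. At an unadjusted p under 0.05, 2 were lower and 6 higher, against 31.3% of all genes tested. PRKAG2, a regulatory subunit of AMP-activated kinase, was at 1.87 and 1.89 FPKM in NC and at 2.86 and 2.97 FPKM in SKA3-KD (adjusted p = 0.0522, limma). It did not pass the threshold and is low in these cells.

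Of 10 listed genes of the ubiquitin system, 9 were tested, with a median of 0.22. Whether each of them acts on a phosphofructokinase or PFKFB protein was not examined here. CDC20, an activator of the anaphase-promoting complex, rose from 63.7 and 62.5 to 91.4 and 93.0 FPKM (log2 fold change 0.54, adjusted p = 0.0114, limma). TNFAIP3, a ubiquitin-editing enzyme, fell from 5.99 and 6.65 to 4.58 and 4.36 FPKM (log2 fold change -0.42, adjusted p = 0.0393, limma). The other 7 did not pass.

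Of 9 transcription factors known to act on these genes, 7 were tested, 3 with a negative and 4 with a positive log2 fold change and a median of 0.00. Of the 7, 3 passed the threshold in limma, 2 lower and 1 higher, and the values of the 2 lower are not reported here. At an unadjusted p under 0.05, 3 were lower and 1 higher, against 31.3% of all genes tested. EPAS1, which encodes the hypoxia-inducible factor HIF-2α, rose from 17.0 and 17.7 to 25.3 and 24.6 FPKM (log2 fold change 0.50, adjusted p = 0.0158, limma). HIF1A, named after its values were seen, was at 17.6 and 16.5 FPKM in NC and at 17.3 and 16.8 FPKM in SKA3-KD, and these groups overlapped.

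**Figure D4:**
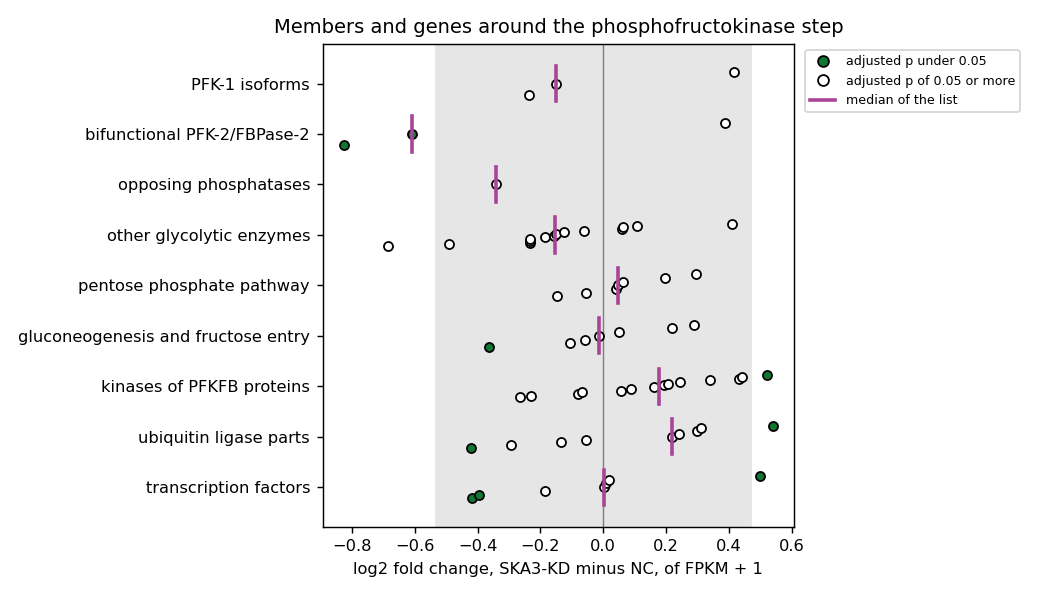
Log2 fold change of FPKM + 1 (SKA3-KD minus NC, x axis) of every tested gene in the lists around the phosphofructokinase step, 1 circle a gene, with the list in rows. Filled circles had an adjusted p under 0.05 in limma, purple lines are list medians, and the grey band is the 5th to 95th percentile of all genes tested. PFKFB2, at -0.83, lies furthest to the left, PFKFB4 is the other filled circle of its list, and no circle is filled in the list of other glycolytic enzymes.

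The profiles of PFKFB2 and PFKFB4 over the 4 libraries were compared with those of 10400 protein genes by the Euclidean distance of centred log2(FPKM + 1). Closest to PFKFB2 were STK24 (distance 0.03), NEBL (0.038) and IDH1 (0.043). STK24 was at 16.8 and 16.5 FPKM in NC and at 8.78 and 9.11 FPKM in SKA3-KD, and IDH1, the cytosolic isocitrate dehydrogenase, was at 25.6 and 24.7 FPKM in NC and at 13.4 and 13.3 FPKM in SKA3-KD. Closest to PFKFB4 were DERL3 (0.059), PLAGL1 (0.064) and EPS8L3 (0.083), which like PFKFB4 had their lowest value in SKA3-KD 1. With 4 libraries such distances mostly record the difference between the groups.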

How the data were processed

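RNA of 4 puromycin-selected TU-177 cultures, 2 NC and 2 SKA3-KD, was sequenced, and groups were taken from the sample titles. The authors deposited FPKM values per gene, without counts. The submitters' processing notes name hg19, Bowtie2 2.2.8, HISAT2, StringTie 1.3.1 and Cuffdiff 2.1.1, with no roles. FPKM removes gene length and library size, but not differences in composition, and overlapping genes can share fragments. Ensembl identifiers were matched to GENCODE 29 (GRCh38) for symbols, positions and exon lengths, and 27199 of 28729 had an entry.

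SKA3-KD was compared with NC by limma 3.58.1 in R 4.3.3 (lmFit, then eBayes with its trend option, group as the only term) on log2(FPKM + 1) of the 12645 genes averaging 1 FPKM or more, with Benjamini-Hochberg adjustment over all of them. Fold changes on this scale understate the change of low genes. FPKM values of a gene step by what 1 read is worth, which gave back whole reads for 95.0% of the 26504 genes above 0 (tolerance 0.01 read) and summed to between 101.59% and 103.18% of the library sizes. Those of TIGAR are the smallest whole numbers that fit. Replicates differed by more than sampling noise. Reads without molecular identifiers are not independent molecules, so the limit given for a count of 0 covers counting error only.

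The members, the lists of genes, the markers and the alternatives were chosen with earlier results of these data known. The genes named are the members, PFKFB1 and FBP2, list genes past the threshold, the 2 largest fold changes of each list, and the 3 closest profiles of each member past the threshold. The results of some list genes past the threshold are not reported here. Alternatives were another pseudocount, filter, scaling or variance model, the replicate number as a block, voom on the recovered reads, and each library left out. The steps were tested on simulated data. Other steps ran in Python 3.11.15 (numpy 2.4.6, pandas 2.3.3, matplotlib 3.10.9).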

Additional observations from a re-analysis of the deposited data

How the results depend on the processing

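All log2 fold changes of SKA3 and of the 7 genes tested kept their direction under every alternative run. With all 4 libraries, SKA3 (-1.28 to -1.09) and PFKFB2 (-0.91 to -0.83) passed the threshold under each of the 9 settings. PFKFB4 no longer passed without a filter on low values (-0.61, adjusted p = 0.149, limma), with median-of-ratios scaling (-0.62, adjusted p = 0.0502), with quantile normalization (-0.61, adjusted p = 0.0508) or without a mean-variance trend (-0.61, adjusted p = 0.0788). Under voom on whole reads PFKL (-0.26), PFKP (0.41), PFKFB3 (0.44) and TIGAR (-0.39) passed, and with a minimum mean of 5 FPKM PFKP (0.42), PFKFB3 (0.39) and TIGAR (-0.34) did. PFKFB3 also passed with a pseudocount of 0.1 (0.44) and with robust eBayes (0.39). With 1 library left out, the lone library being assumed to vary like the other group, the log2 fold change ranged from -1.14 to -1.04 for SKA3, from -0.85 to -0.80 for PFKFB2 and from -0.77 to -0.45 for PFKFB4. SKA3 was past the threshold in 3 of 4 such cases, all but that without NC 1 (adjusted p = 0.0689). Against 772 lower and 779 higher genes, 81 and 48 passed without a filter, where 37.2% of the calls were higher instead of 50.2%, 381 and 312 without a trend, and 1642 and 1586 with voom. With 1 library left out, 0 to 131 lower and 0 to 82 higher genes passed. Both were 0 without NC 1, where 1469 lower and 1644 higher genes had an unadjusted p under 0.05. With recovered reads in place of FPKM, the share of PFKL differed by -6.83 and that of PFKFB3 by 13.8 percentage points. Recovered reads are not divided by exon length, so longer genes weigh more in these shares than in those of FPKM. The cause of the other changes was not tested.

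The labels number the replicates 1 and 2 in both groups and do not say that a number marks a shared culture. Deviations of same-numbered libraries from their group means correlated at r = 0.097 over 12645 genes. With the replicate number as a block, PFKP (0.42, adjusted p = 0.0393, limma) and TIGAR (-0.34, adjusted p = 0.0342) passed, no other gene of the 7 changed its call, and 965 lower and 1002 higher genes passed.

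With 2 libraries a group, PFKFB3 and PFKFB4 lie too close to the threshold to be placed firmly on either side of it, and FBP1 is too low at this depth to be compared.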
